A study of Mus musculus with 4 samples.

Results

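In the epidermis of newborn mice labelled p63 alphaKO, 3497 of the 14593 listed p63 peaks lay inside protein-coding genes at places where the wild-type (WT) list had no peak. These sites were chosen by the calls in both peak lists: an alphaKO peak qualified if it shared no bp with any WT peak and if its summit lay in the body of a protein-coding gene, more than 1 kb from every protein-coding gene end (RefSeq, GRCm38.p6, the assembly that mm10 names). Only 2281 sites qualified when the alphaKO list was limited to its strongest peaks by q, as many as in the WT list. Both lists together held 25209 peaks, of which 10616 were WT. The samples were epidermis of dorsal skin at postnatal day 0, 1 chromatin immunoprecipitation (ChIP) library per genotype with the p63 antibody EPR570, and an input library of each genotype that was not analysed here. The labels give the groups as wild type and p63 alphaKO and name no other allele or agent. They do not give the number of animals, the strain or how the allele was made. Peaks do not measure transcripts, so neither the tissue nor the genotype label could be checked with markers.

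p63, encoded by Trp63, is a transcription factor of the p53 family that maintains the basal keratinocytes of stratified epithelia. Its alpha isoforms carry a sterile alpha motif domain and an inhibitory domain at the carboxyl terminus, the part of the protein in which most mutations of AEC syndrome, a disorder of skin and eyelids named in the title of the series, are found. p63 binds DNA as a tetramer at paired p53-type recognition elements, and many of its sites in keratinocytes are distal enhancers, including enhancers within introns.

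Since the calls chose the sites, their peak values are given as descriptions without a test. The comparison of genotypes had no replicate, and the 95% Wilson intervals on shares cover counting error over peaks or genes, which are not replicates of a condition. Fold enrichment is the authors' value, the pileup at the summit over the local background. Folds were ranked and compared only within a list, and where WT and alphaKO folds stand side by side no difference is drawn from them. Over the whole lists the median fold was 8.44 for WT peaks and 15.5 for alphaKO peaks. The local background was calculated here from the reported pileup and fold of each peak. Its median was 8.31 for WT peaks and 5.81 for alphaKO peaks. Absence from the WT list means that no WT peak passed the caller's threshold there. It does not give a WT signal of 0.

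A few sites fell on transcript starts that lie inside a gene, and for these the sequence of a window that holds the summit can be shown. Summits of 20 sites lay in 1 of the 32851 RefSeq promoter windows (250 bases before to 50 after a start, GRCm38.p6), and 10 of these 20 windows belonged to the gene itself. The 3 with the highest fold are printed 5′ to 3′, with capitals for the core of a p53-type recognition element. This core was searched as C, then 2 letters that are each A or T, then G, then any 6 letters, then the same 4-letter pattern again, a pattern that reads alike on both strands. The first window is the start of the non-coding gene 5430435K18Rik inside Stard13, which encodes a GTPase-activating protein (chr5:151252373-151252672, plus strand). The second is an inner start of Trp73, the gene of the p53 family member p73 (chr4:154097124-154097423, minus strand). The third is the start of Gm19950 inside Acsm1, which encodes a medium-chain acyl-CoA synthetase (chr7:119642449-119642748, minus strand).
5430435K18Rik in Stard13: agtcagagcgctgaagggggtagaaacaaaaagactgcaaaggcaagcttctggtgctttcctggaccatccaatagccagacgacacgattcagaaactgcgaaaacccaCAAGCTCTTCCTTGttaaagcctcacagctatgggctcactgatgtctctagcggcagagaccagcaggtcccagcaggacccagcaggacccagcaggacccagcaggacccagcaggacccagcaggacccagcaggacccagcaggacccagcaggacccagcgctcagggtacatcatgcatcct
Trp73: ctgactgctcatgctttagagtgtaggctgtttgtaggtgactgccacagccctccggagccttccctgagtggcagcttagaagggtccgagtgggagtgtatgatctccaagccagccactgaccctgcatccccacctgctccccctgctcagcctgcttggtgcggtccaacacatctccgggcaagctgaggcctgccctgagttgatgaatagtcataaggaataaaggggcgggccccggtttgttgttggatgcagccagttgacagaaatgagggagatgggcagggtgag
Gm19950 in Acsm1: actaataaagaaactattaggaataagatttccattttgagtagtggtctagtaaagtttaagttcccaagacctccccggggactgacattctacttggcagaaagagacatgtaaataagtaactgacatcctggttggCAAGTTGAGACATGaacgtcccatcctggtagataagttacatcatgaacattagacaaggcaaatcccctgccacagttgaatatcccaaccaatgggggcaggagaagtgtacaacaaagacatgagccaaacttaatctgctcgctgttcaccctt

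The Stard13 site had a fold of 58.1, a pileup of 467 and a summit 27 bases before the start. This summit fell within the run of short tandem repeats seen in the printed window, where the mapping of reads is uncertain. Whether the repeats contributed to the pileup was not tested. The Trp73 site had a fold of 30.5, a pileup of 281 and a summit 56 bases before the start, 41.0 kb from the nearer gene end. Trp73 has 2 starts in the table, and the gene is known for an inner promoter that gives amino-terminally shortened p73. The Acsm1 site had a fold of 15.1 and a pileup of 72. The core pattern was present in the windows of Stard13 and Acsm1 and not in these letters in the window of Trp73. In the Stard13 window the pattern began 139 bases before the start, away from the summit. In the Acsm1 window it began 109 bases before the start, and the summit lay 103 bases before it.

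Of the 20 windows, 5 (25%, 11.2 to 46.9) held the pattern, against 2371 (7.22%, 6.94 to 7.50) of all 32851 windows. All 5 were windows at the start of another gene inside the host gene, and no window at the host gene's own start held the pattern. The shares were not tested. Windows that hold summits of shared or WT-only peaks were not counted, so the share usual for p63-bound starts is not known here. The 5 matches are shown to let the 4-letter cores be compared. Arpp21 (fold 8.90), Foxn3, which encodes a forkhead factor (6.60), and Mctp2 (11.4) gave their names to the host genes of the remaining 3.
Stard13: CAAGCTCTTCCTTG
Acsm1: CAAGTTGAGACATG
Mctp2: CAAGTCTGTTCATG
Arpp21: CATGCTGGGGCAAG
Foxn3: CTTGTTGTGACTTG

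The Dnmt1 gene, which encodes the maintenance DNA methyltransferase, had a site of fold 2.74 in the window of an inner start, and a further site of fold 13.8. Dlg3 (10.3) and Pls3, which encodes plastin 3 (8.78), had sites in windows of their own inner starts on the X chromosome.

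The sites without a WT partner were weaker than the shared sites of the same gene bodies, yet many were far above the weakest listed peaks. Their fold ranged from 2.27 to 205, with a median of 12.8 and quartiles of 9.16 and 19.0. The 3122 shared alphaKO peaks under the same position rule had a median of 22.8 (quartiles 12.9 and 38.8). The median pileup at the summit was 83 for the sites without a partner and 173 for the shared sites, the median width 360 and 453 bp, and the median −log10 q 62.9 and 171. The 3615 alphaKO-only peaks between genes had a median fold of 13.02. Of the 3497 sites, 577 (16.5%, 15.3 to 17.8) exceeded the median fold of the shared gene body sites, and 1252 (35.8%) stood in the stronger 50% of the whole alphaKO list. The calculated local background at these sites never exceeded 13.6, whereas it reached 58414 over the whole alphaKO list. No site therefore lay in a place of extreme pileup in both signal and background.

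**Figure D1:**
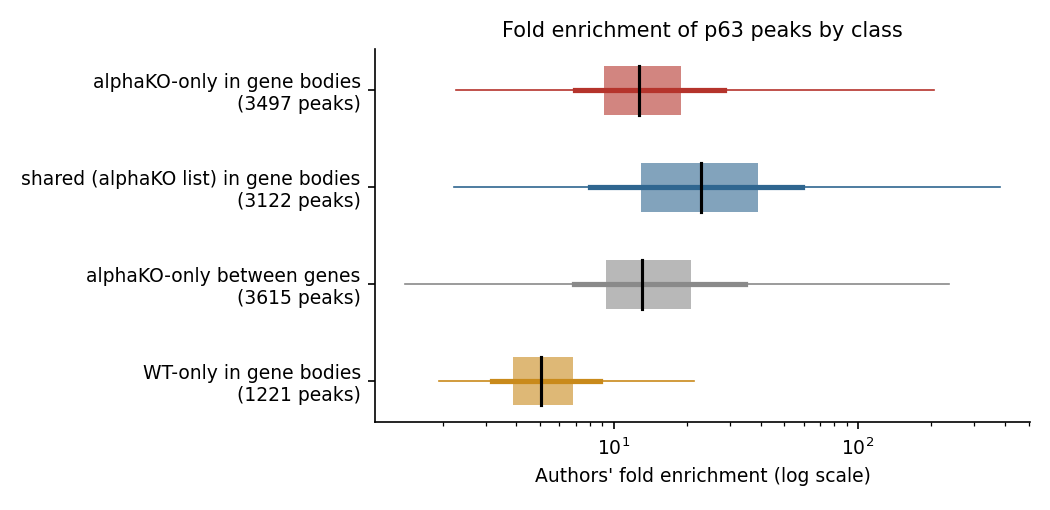
Authors' fold enrichment (log scale) for 4 classes of p63 peaks: black lines are medians, boxes the quartiles, thick lines the 10th to 90th percentiles and thin lines the full range. The median of the alphaKO-only gene body sites, 12.8, lies below that of the shared gene body sites, 22.8, and close to that of alphaKO-only peaks between genes, 13.02; WT folds come from another list.

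The share of peaks without a WT partner was much the same inside genes and between them. It was 52.8% in gene bodies, 53.5% between genes and 33.9% (411 of 1213) within 1 kb of gene ends, beside 51.6% for the whole alphaKO list. In the opposite direction, 1221 of the 4346 WT gene body peaks (28.1%) had no alphaKO partner, with a median WT fold of 5.07.

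Within gene bodies the share without a partner fell from moderate to high fold. It was 71.1% (68.7 to 73.4) at alphaKO folds from 5 to 10, 70.3% from 10 to 15, 57.2% from 15 to 20, 44.1% from 20 to 30, 23.6% from 30 to 50 and 16.5% (13.7 to 19.9) at 50 or above. Below a fold of 5 it was 51.0% of 208 peaks. The WT folds of listed partners come from another list and are given beside 2 of these classes without a comparison of size. For alphaKO folds from 10 to 15, the 451 partners had a median WT fold of 8.98 and a lowest one of 3.02. At 50 or above, 92 peaks had no partner, and the 464 partners of the others had a median WT fold of 26.3 and a lowest of 3.79.

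**Figure D2:**
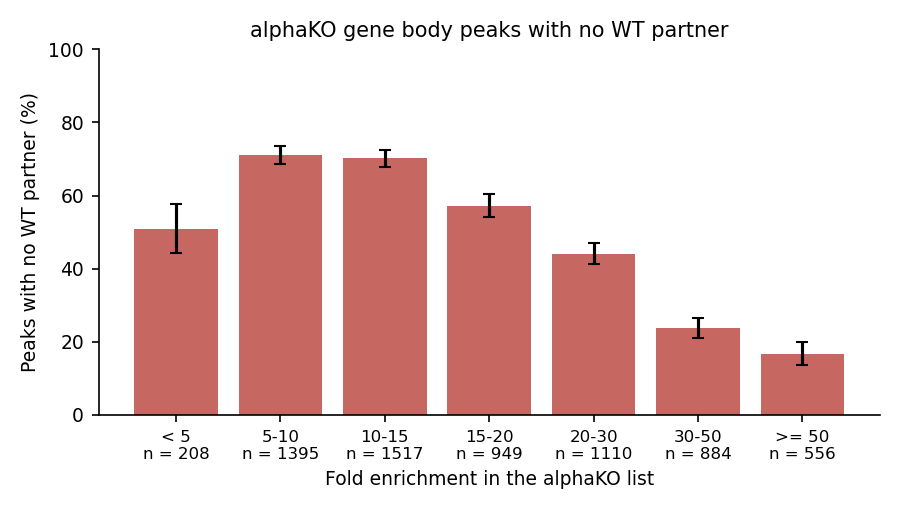
Share of alphaKO gene body peaks without a WT partner (y axis, %) by alphaKO fold (x axis, with the number of peaks); error bars are 95% Wilson intervals. The share is highest between folds of 5 and 15 and lowest, 16.5%, at 50 or above.

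At the edges of the rule the sites were ordinary or weak. The nearest WT peak edge to any of the sites was 291 bp away, as at Msi2 (fold 11.4), and the one at Itgb2 (6.11) was 300 bp away. Just outside, the smallest overlaps with a WT peak were 113 bp at Pak6 (alphaKO fold 3.74, WT fold 3.90), 124 bp at Cachd1 (2.90 and 3.32) and 179 bp at Esr1 (6.50 and 4.62). No overlap of a few bp therefore decided a call. The sites closest to a gene end, at 1015 to 1032 bp, were those in Cdk2ap1 (3.43), Stpg4 (11.5) and Nynrin (4.83). Those kept out at 973 to 991 bp were in Slc7a1 (2.87), Tmem86a (12.6) and Hoxc13 (20.9).

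The strongest sites lay in genes with varied functions, several of them known from nerve, immune or ciliated cells rather than from epidermis. Mpped1, which encodes a metallophosphoesterase domain protein, held the site with the highest fold, 205 (chr15:83852190-83852746, pileup 999), which ranked 15 in the whole alphaKO list. The nearest WT peak was 60.5 kb away. Mctp1, which encodes a calcium-binding membrane protein, followed with a fold of 194 and a pileup of 1315 (chr13:76445005-76445798), 322 kb from the nearest WT peak. Both sites had summit pileups more than 10 times the median of the sites without a partner.

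The next were in Rsph6a, a radial spoke gene of the sperm tail (135), and Ptprd, a receptor tyrosine phosphatase of synapses (130, chr4:77644897-77645493). The Ptprd site was 1443 kb from any WT peak. Ppid, which encodes a cyclophilin (106), Cbs, which encodes cystathionine beta-synthase (105), and Nlrp3, which encodes an inflammasome sensor (103), followed. Naip5, which encodes a sensor of bacterial flagellin, had a site at 103, but it belongs to a cluster of near-identical genes, where the mapping of reads is uncertain. Ptpn22, a phosphatase of lymphocyte signalling (97.5), Ppp1r42 (93.7), Mapk10, which encodes the kinase JNK3 (93.2), Sbk1 (92.7), Zfp451 (90.7) and Hydin, a gene of motile cilia (87.7), were also among the 15 highest. Of the 15 sites, the one in Cbs lay closest to a WT peak edge, at 10.5 kb.

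Along the gene, the sites were spread almost evenly. For 2728 sites in a single gene of known strand, the median position was 0.49 of the way from start to end (quartiles 0.25 and 0.73). With each gene divided into 5 equal stretches from start to end, these held 20.3%, 21.0%, 20.3%, 20.4% and 17.9% of the sites in order. Shared gene body sites leaned toward the start, with a median position of 0.44 and 24.3% (22.7 to 26.1) in the first stretch, against 20.3% (18.8 to 21.9). WT-only gene body sites had a median position of 0.40 and 25.5% (22.8 to 28.4) in the first stretch.

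The rule left summits within 1 kb of a protein-coding gene end out of every gene body class. Within this limit, the sites lay deeper inside genes than shared gene body sites and less often near annotated starts. Their median distance to the nearest protein-coding gene end was 23.0 kb, against 19.5 kb for shared gene body sites, and 1051 (30.1%, 28.6 to 31.6) lay over 50 kb from every gene end, against 24.6% (23.1 to 26.1). A summit was within 1 kb of any start in the promoter table for 79 sites (2.26%, 1.82 to 2.81), for 161 shared gene body sites (5.16%, 4.43 to 5.99) and for 182 WT-only gene body sites (14.9%, 13.02 to 17.01). Bdnf, which encodes a neurotrophin, was among the 79, with a fold of 29.9 and a summit 0.143 kb from an inner start; it was singled out after its value was seen. The promoter table is not complete, and exons and introns were not used here.

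The sites lay farther from shared p63 peaks than shared gene body sites did from each other. The median distance to the nearest shared alphaKO peak was 73.4 kb (quartiles 24.3 and 212 kb), whereas shared gene body sites lay a median of 36.3 kb from the next shared peak. Within 10 kb of a shared alphaKO peak were 457 sites (13.1%, 11.99 to 14.2), against 727 shared gene body sites (23.3%, 21.8 to 24.8). The alphaKO-only peaks between genes lay farther still, a median of 104 kb from a shared peak, with 10.9% within 10 kb. To the nearest alphaKO peak of any class the median was 31.6 kb for the sites and 19.2 kb for shared gene body sites, and 839 sites (24.0%, 22.6 to 25.4) had one within 10 kb. The distance to WT peaks, which the choice of the sites restricts, had a median of 52.2 kb to the nearest edge. A WT peak edge within 1 kb was found for 71 sites (2.03%, 1.61 to 2.55), which had a median alphaKO fold of 10.7 beside WT peaks of median fold 8.54. Another site without a partner lay within 10 kb of 455 sites (13.01%).

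At least 1 such site was present in 2443 of 21883 protein-coding genes (11.2%). For comparison, 2473 genes (11.3%) held a shared alphaKO peak anywhere in the body, 2109 (9.64%) one more than 1 kb from gene ends, and 1585 (7.24%) a WT-only peak. Of the 2443 genes, 1774 (72.6%) had 1 site, 456 had 2 and 213 (8.72%) had 3 or more, up to 9. A shared peak was also present in 844 of them (34.5%) and a WT-only peak in 480 (19.6%). In 192 of the 844 genes (22.7%, 20.0 to 25.7), a site without a partner was the strongest alphaKO peak of the gene.

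Long genes held these sites most often. The median length was 88.1 kb for genes with a site, 72.5 kb for the 2109 genes with a shared peak more than 1 kb from gene ends and 17.2 kb for all protein-coding genes. A site was present in 2.97% of genes of 5 to 20 kb, 11.1% of 20 to 50 kb, 22.4% of 50 to 100 kb, 37.8% of 100 to 200 kb, 54.1% (50.6 to 57.6) of 200 to 500 kb and 65.5% (59.1 to 71.4) above 500 kb. For shared peaks under the same position rule the last 2 shares were 37.5% (34.1 to 41.0) and 43.4% (37.1 to 49.9). Per Mb of gene, the number of sites rose from 2.67 in genes of 5 to 20 kb to 4.09 at 100 to 200 kb and was 1.98 above 500 kb. The shared sites numbered 3.27, 3.79 and 1.32 per Mb in the same classes. The median fold of the sites differed little between length classes, from 11.2 to 13.4.

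**Figure D3:**
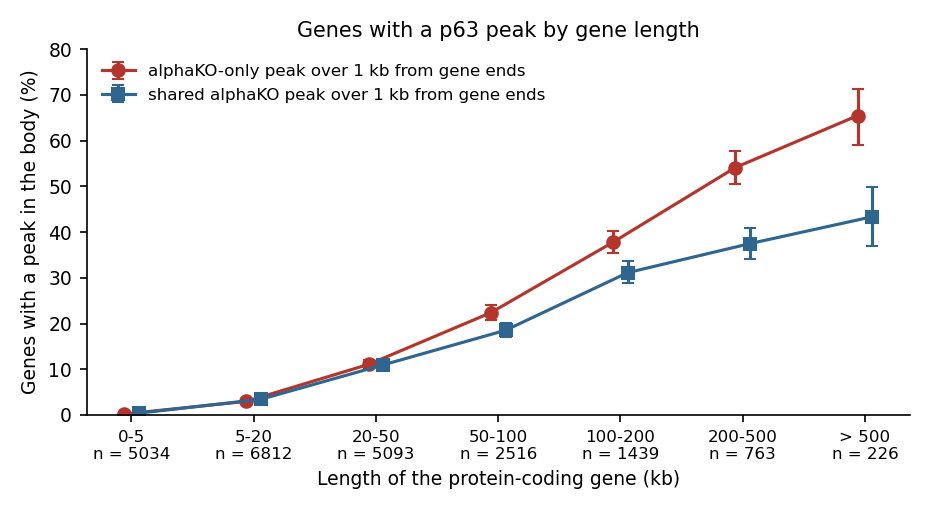
Share of protein-coding genes (y axis, %) with an alphaKO-only or a shared alphaKO peak more than 1 kb from gene ends, by gene length in kb (x axis, with the number of genes); error bars are 95% Wilson intervals. The curves meet at 20 to 50 kb and are apart in every longer class; above 200 kb, 54.1% and 65.5% of genes held an alphaKO-only site and 37.5% and 43.4% a shared one.

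Robo2, a receptor for Slit guidance cues, Arhgap24, a Rac-directed GTPase-activating protein, Lpp, a LIM protein of focal adhesions, Auts2, a regulator of transcription in neurons, and Nckap5 each held 9 sites, the highest number. In Robo2 their folds ran from 5.28 to 43.3, beside 4 shared peaks of up to 70.9. In Arhgap24 the highest fold of a site was 26.7 and that of the 4 shared peaks 69.5. In Lpp the values were 23.7 and, for 5 shared peaks, 60.2. Auts2 was the gene with most shared peaks among these, 10, of up to 90.1, and its strongest site without a partner had 21.2. In all 5 genes a shared peak was the strongest, and in the 4 with the highest summed fold the sites without a partner lay between and around the shared ones.

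**Figure D4:**
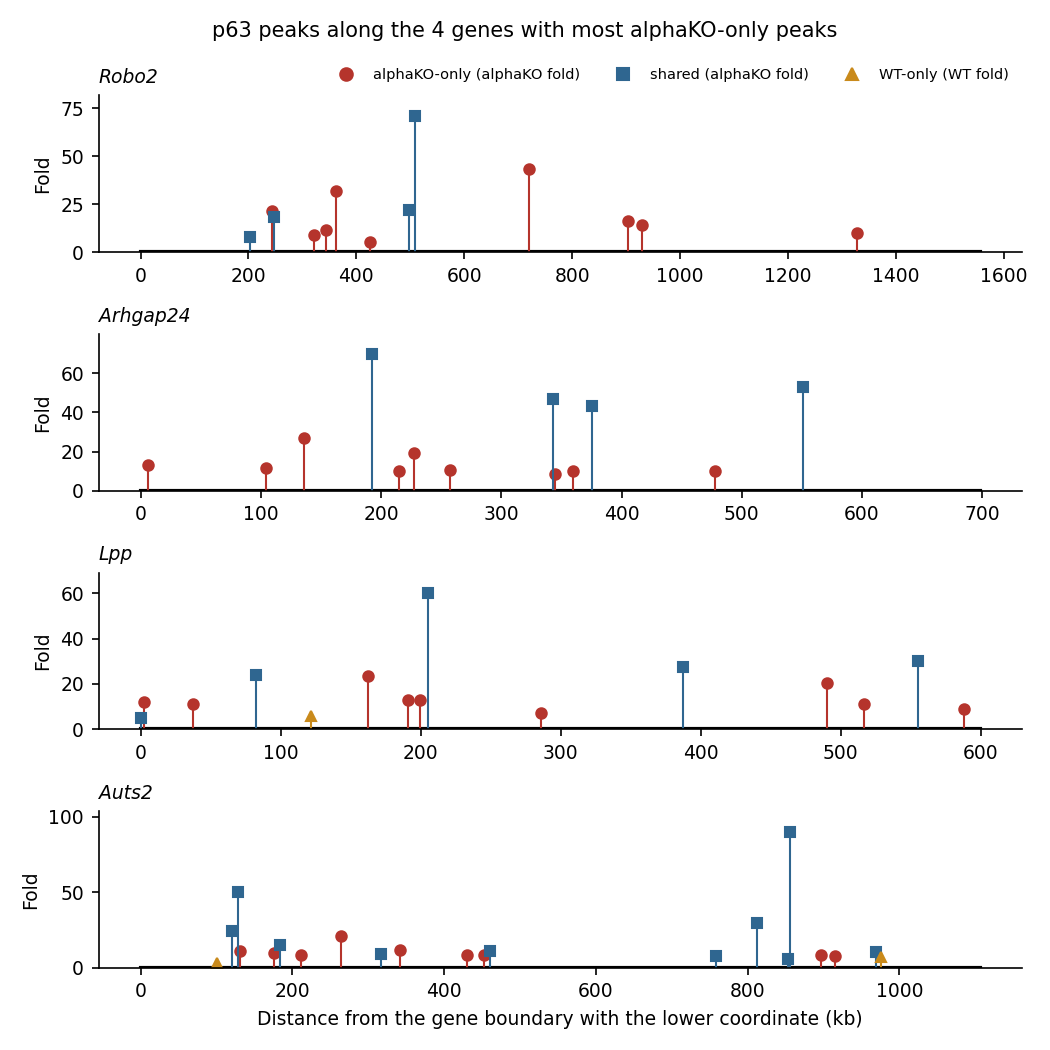
Positions of p63 peaks along Robo2, Arhgap24, Lpp and Auts2 (x axis, kb from the gene boundary with the lower coordinate) with the authors' fold (y axis); circles are alphaKO-only sites, squares shared peaks with their alphaKO fold, and triangles WT-only peaks with their WT fold. Each gene has 9 circles, all lower than its tallest square; the tallest squares are 70.9, 69.5, 60.2 and 90.1.

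Maml2, a coactivator of Notch signalling, Pcdh15, a protocadherin of sensory hair cells, Dlg2, a scaffold of synapses, Frmd4b, a scaffold of cell junctions, and Celsr1, a planar cell polarity cadherin that orients hair follicles, held 7 each, as did Mcc with a lower summed fold. Celsr1 was the shortest of the 10 genes with most sites, at 135 kb, with a site every 19.4 kb on average. Its 7 folds ran from 9.62 to 17.3, and its 4 shared peaks reached 56.3. Pcdh15 differed in having no shared and no WT peak across 1554 kb, while its 7 sites had folds from 8.03 to 37.3.

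In 1420 genes (6.49% of all, and 58.1%, 56.2 to 60.1, of those with a site) these sites were the only p63 peaks in the body apart from any alphaKO-only peak near a gene end. Such genes had a median length of 63.5 kb, against 135 kb for genes that also held a shared peak. The sites in them were about as strong as the rest, with median folds of 13.2 for 1736 sites and 12.3 for the other 1761. Mctp1, Rsph6a, Ptprd, Ppid and Cbs, described above, had the highest folds among them. Ptprd carried 3 further sites of 32.0, 20.1 and 15.9, and Mctp1 and Cbs each 1 further site, of 9.20 and 9.55.

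The gene lists that follow are described by their counts beside the share over all genes, 11.2%. Because long genes hold more sites, the number that a list would hold at the all-gene share of each length class is given as well; no list was tested. Of 398 distinct genes in the 16 lists, 151 had a site. For each list the strongest sites are named. For some of the genes, not all, the strongest WT peak anywhere in the same gene is also given, which is at another place. A shared peak overlaps a WT peak by definition, whether or not a WT fold is printed. WT and alphaKO folds differ over the whole lists, as given above.

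Genes that anchor basal keratinocytes to the basement membrane, with other basal layer genes, had a site in 10 of 20 cases (50.0%, 29.9 to 70.1), against 3.74 at the all-gene share of their lengths. The list was also rich in the other classes of p63 peaks: of the same 20 genes, 13 held a shared peak and 8 a WT-only peak. Lamb3, which encodes a chain of laminin 332, had sites of fold 34.1 and 12.05, and the stronger was 0.865 kb from the nearest WT peak edge. The strongest WT peak of Lamb3 was 10.3 and its shared alphaKO peak 13.7. Itgb1, the integrin beta 1 chain, had sites of 31.0 and 9.25 (the stronger at chr8:128704416-128704888) and no WT peak in the body. Cdh3, which encodes P-cadherin, had a site of 27.4 among shared peaks of up to 68.6, with 27.3 for its strongest WT peak. Bcam, a laminin receptor, had 1 site of 26.7 and no WT peak. Dst, Lama3, Fras1, Col17a1 and Plec had sites of 7.51 to 20.1 beside stronger shared peaks, and Itga2 1 of 10.7 as its only peak.

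Genes of desmosomes and other junctions had a site in 8 of 25 cases (32.0%, 17.2 to 51.6), against 5.84 at the share of their lengths. Tjp1, which encodes the tight junction scaffold ZO-1, had the strongest, 29.8, with 20.0 for its strongest WT peak. Cdh1, which encodes E-cadherin, had sites of up to 20.4, with 15.9 in WT. Dsg1a, a desmoglein of the upper layers, had a site of 17.5 and no WT peak. Pard3, a polarity scaffold, held 6 sites of up to 15.2.

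Terminal differentiation and barrier genes had a site in 5 of 25 cases (20.0%, 8.86 to 39.1), against 2.69 at the share of their lengths. Sbsn, which encodes suprabasin, had a site of 19.7, with a WT-only peak of 5.08 elsewhere in the gene. Ppl, which encodes periplakin, had 19.3 beside shared peaks of up to 41.9. Tgm5, a transglutaminase of the cornified envelope, had 16.3 and no WT peak. Abca12, a lipid transporter of lamellar granules, had 2 sites of up to 13.6, with 11.1 in WT.

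Epidermal transcription factor genes had a site in 7 of 32 cases (21.9%, 11.0 to 38.8), near the 6.46 at the share of their lengths, and in 4 at a fold of at least 10 or with equal list lengths. Rora, a nuclear receptor, had 4 sites, led by folds of 55.0 and 25.2, with 47.5 for its strongest shared peak and 20.4 in WT. Runx1, a regulator of hair follicle stem cells, had 5 sites, of 31.0, 23.6, 16.6, 10.7 and 5.88, spread over its 225 kb, with no shared and no WT peak in the body. Its nearest WT peak edges lay 152 kb or more away. Bcl11b, which encodes CTIP2, had sites of up to 22.6, and Vdr, the vitamin D receptor gene, 12.8, both beside stronger shared peaks. Trp63 itself had no such site.

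Of 24 targets and members of the p53 pathway, 2 had a site (8.33%, 2.32 to 25.8), against 1.47 at the share of their lengths, although 13 held a shared peak. Trp73, with the inner start shown above, had a further site of fold 8.49 and 5 shared peaks of up to 83.1, with 39.0 in WT. The site at its inner start was 4.725 kb from the nearest WT peak edge. Sesn1, a stress-induced regulator of metabolism, had a site of 11.1 and a shared peak of 22.0.

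Genes of the Wnt, hedgehog and Notch pathways had a site in 10 of 33 cases (30.3%, 17.4 to 47.3), against 6.97 at the share of their lengths. Maml2 had the strongest, 29.8, and 3 of its 7 sites had folds over 25. Gli3, a hedgehog-regulated transcription factor, had 25.7 beside a shared peak of 85.8. Tcf7l2 and Lef1, which encode DNA-binding partners of beta-catenin, had sites of 25.04 and 23.6, above their strongest shared peaks of 19.4 and 14.4. Hhip and Sufu, both antagonists of hedgehog signalling, had sites of 9.20 and 6.03 as their only peaks.

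Growth factor receptor and ligand genes had a site in 11 of 30 cases (36.7%, 21.9 to 54.5), against 9.09 at the share of their lengths. Igf1r, the receptor of insulin-like growth factor 1, had 4 sites of 61.2, 15.7, 12.4 and 9.16. The strongest (chr7:68200509-68200985) was above its strongest shared peak of 18.1 and lay 59.7 kb from the nearest WT peak edge. Ntrk3, a neurotrophin receptor, had 1 site of 53.8 and no WT peak. Nrg1, which encodes an ERBB ligand, and Erbb4, its receptor, had sites of up to 40.0 and 31.7, each above the strongest shared peak of the gene (31.1 and 26.4).

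Collagen and matrix genes had a site in 14 of 32 cases (43.75%, 28.2 to 60.7), against 11.7 at the share of their lengths, and in 6 of these the gene had no WT and no shared peak. Adamtsl1 had 4 sites of up to 53.9, Col14a1 2 of up to 50.4, Col4a6 2 of up to 35.3 and Col4a2 3 of up to 35.1. Col14a1 encodes a collagen of the fibril surface, and Col4a2 and Col4a6 encode chains of the basement membrane collagen IV. The strongest WT peaks of these 4 genes had folds of 13.9, 6.60, 5.46 and 12.2.

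Regulators of the cytoskeleton and of small GTPases had a site in 21 of 31 cases (67.7%, 50.1 to 81.4), against 14.4 at the share of their lengths, and they held 53 sites in all. Dock9, an activator of Cdc42, had 4 sites led by 53.1, above its shared peak of 27.6. Diaph3, a formin, had 43.3, above its shared peak of 6.26. Arhgef3, a guanine nucleotide exchange factor, had 34.6, just under its strongest shared peak of 35.6. Ank3, which encodes ankyrin G, had 4 sites of up to 33.0 and no WT peak.

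Chromatin regulator genes had a site in 6 of 31 cases (19.4%, 9.19 to 36.3), fewer than the 8.65 at the share of their lengths, and in 3 at a fold of at least 10 or with equal list lengths. A WT-only peak was present in 12 of them. Arid1b, a subunit of BAF chromatin remodellers, had 6 sites of up to 19.3, Smarca2, an ATPase of the same complexes, had 15.8, Dnmt1 had 13.8, and Arid1a 8.22.

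Genes of synaptic adhesion and other neuronal functions had a site in 23 of 32 cases (71.9%, 54.6 to 84.4), close to the 20.5 at the share of their lengths; their median length was 1137 kb. They held 65 sites, led by Ptprd, Lrp1b, a giant lipoprotein receptor (60.4), Dlg2 (43.3) and Rbfox1, a splicing factor (40.8). Of the 23 genes, 11 had no WT and no shared peak. Ion channel and neurotransmitter receptor genes had a site in 27 of 40 cases (67.5%, 52.0 to 79.9), against 23.0, and 7 of the 40 held a shared peak. Gria4 and Grm8, which encode glutamate receptors, had 57.8 and 35.1, Cacna1d, a calcium channel gene, 30.2, and Kcnq5, a potassium channel gene, 29.4. In Gria4 and Grm8 no WT peak was listed, and Cacna1d and Kcnq5 had WT-only peaks of 6.25 and 4.00.

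The 4 lists of marker genes of other cells of skin held sites in numbers that differed by less than 1 gene from those at the share of their lengths. Of 11 dermal fibroblast markers, 1 had a site, Postn (11.9), against 0.897 at the share of their lengths. Of 11 melanocyte markers, 2 did, Oca2 (22.3) and Dct (13.2), against 2.06; more than 5 kb from gene ends, 1 did. None of 10 immune markers did, which allows a share of up to 27.8% (upper Wilson bound), against 0.751 at the share of their lengths. Of 14 endothelial and muscle markers, 4 did, against 3.63: Pecam1 (22.5), Ryr1 (14.9), Tek (9.26) and Erg (7.98); 2 did at a fold of at least 10. Whether cells other than keratinocytes contributed to the peaks was not tested.

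**Figure D5:**
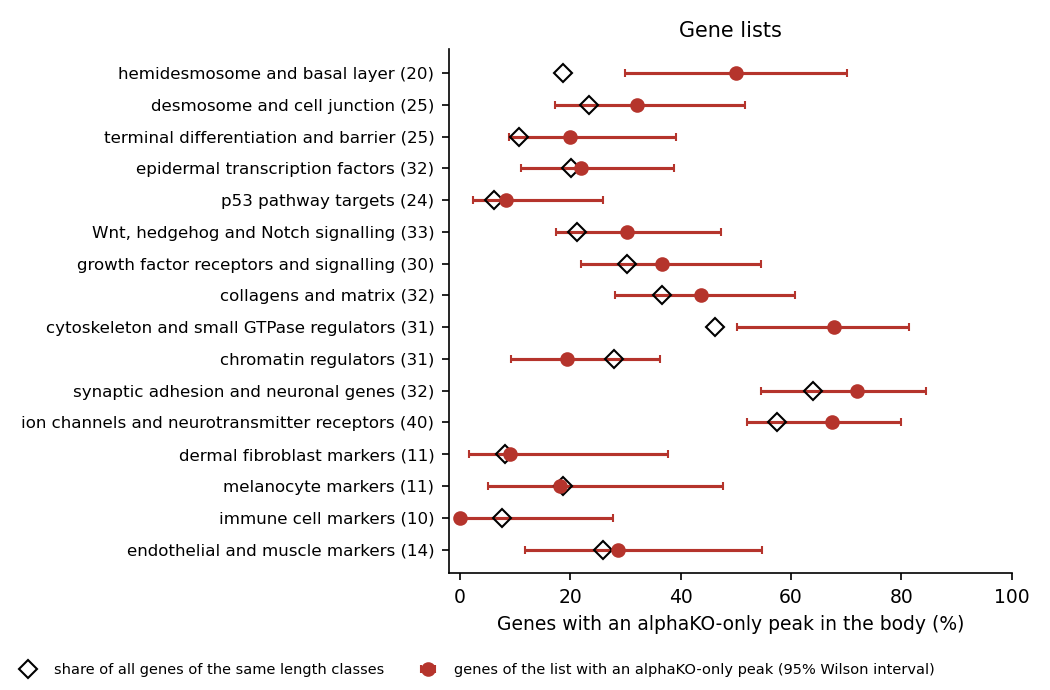
Share of the genes of each list (number of genes in brackets) that held an alphaKO-only gene body site (filled circles, x axis in %, with 95% Wilson intervals), and the share that all protein-coding genes of the same length classes had (open diamonds). Circles lie farthest to the right for neuronal, cytoskeleton and ion channel genes, where the diamonds are also high; for basal layer genes the circle is at 50.0% and 3.74 of 20 genes is the diamond.

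Among chromosomes, the X differed in numbers from the autosomes. The share of alphaKO gene body peaks without a WT partner was 46.3% to 60.1% on the autosomes and 71 of 98 (72.4%, 62.9 to 80.3) on the X. Per Mb of gene body the X had 1.55 of these sites, against 2.99 to 4.37 on the autosomes, and 0.591 shared sites, against 3.03 over the whole genome. Their median fold on the X was 14.2, beside 12.7 on the autosomes. In the opposite direction the share without a partner was also highest on the X, but it rested on few peaks and no interval was calculated. Of 43 WT gene body peaks there, 16 (37.2%) had no alphaKO partner, against 21.8% to 34.0% on the autosomes. The whole WT list had 140 peaks on the X and 1 on the Y, and the alphaKO list 269 and 9. The median local background of X peaks was 5.87 in the WT list, where autosomal peaks had 8.31, and 3.85 in the alphaKO list, where they had 5.85. The value of 3.85 is also the lowest background of any peak in the alphaKO list, so this X median lies at a floor. The lowest background in the WT list was 4.22, below its X median. The labels give no sex, and the part of the lower X background in these counts was not tested. A single site lay in a gene on the Y.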

How the data were processed

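Peaks came from 1 p63 ChIP library per genotype. Alignment tool Bowtie2, peak caller MACS2 (2.1.1.20160309) and build mm10 are named per the submitters' processing notes. Caller options, the control library and read totals are not given there, so absolute depth is unknown and limits what absence from a list means. The authors deposited, per the file headers, a position, a pileup (signal), a fold enrichment (ratio), and −log10 p-values and q-values for each peak. Sharing meant at least 1 common bp. RefSeq genes (21883 protein-coding, without the mitochondrial ones) gave positions, and the promoter table gave strand for 79.9% of them. The sites and the 16 gene lists (402 entries, 1 without a match) were chosen with earlier results of these data known. Named genes followed a rule: the 15 strongest sites, the 10 genes with most sites, up to 4 genes per list, sites nearest the thresholds, and the 5 strongest in genes with no other peak. Some genes that this rule names are not reported here. No test between genotypes was possible. Code tested on simulated data found 665 of 665 planted sites. Alternatives are given at the end. Calculations ran in Python 3.11.15 with pandas 2.3.3 and NumPy 2.4.6, intervals came from SciPy 1.17.1, and plots from matplotlib 3.10.9.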

Additional observations from a re-analysis of the deposited data

How the results depend on the processing

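No paired analysis was possible because each genotype had 1 library and no test was made. Over 7 main results and 10 alternatives, 57 values kept inside the main value's 95% interval (for counts, a 1.5-fold margin) and 13 did not. For the gene lists these numbers were 153 and 7. With only the strongest alphaKO peaks kept, by q, equal in number to the WT list, 2281 sites were left, with a median fold of 16.3; 10.9% lay within 10 kb of a shared alphaKO peak, and the share of gene body peaks without a partner was 46.2%. At an alphaKO fold of at least 10 the last 3 values were 15.8, 10.4% and 47.8%. The share without a partner became 55.0% when partners had to overlap by 50%, 54.4% more than 5 kb from gene ends and 51.0% for any summit inside a gene. The share of genes with no other p63 peak became 60.6% with −log10 q of at least 10 in both lists, 54.4% more than 5 kb from gene ends and 60.3% for any summit inside a gene. The first 2 settings raise the median fold by their construction; the causes of the other shifts were not tested. The number of genes stayed between 1765 and 2657, and the median position in the gene between 0.48 and 0.50. Without replicates, the spread between animals is unknown.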

Other observations

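Some of the gene body sites lay on non-coding genes within a protein-coding gene. A summit fell in the body of a non-coding RefSeq gene for 220 of the 3497 sites (6.29%, 5.53 to 7.14), for 195 of the 3122 shared gene body sites (6.25%, 5.45 to 7.15) and for 632 of the 3615 alphaKO-only sites between genes (17.5%, 16.3 to 18.8). A miRNA hairpin was within 1 kb of the peak for 4 sites. The site of fold 12.5 in Trib2, which encodes a pseudokinase, overlapped the hairpin of Mir6387. The sites in Hadhb (7.98), Ache, which encodes acetylcholinesterase (13.6), and Sh2b3, an adaptor of cytokine signalling (7.12), lay 64, 298 and 889 bp from the hairpins of Mir1960, Mir8116 and Mir7031.

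Sntb1, which encodes a syntrophin of the dystrophin complex, held 6 sites and no shared or WT peak in its 271 kb. Its folds were 63.1, 45.1, 39.3, 14.9, 9.24 and 7.27, and the nearest WT peak edge to any of these sites was 118 kb away. Iqch and Ppargc1a, which encodes a coactivator of mitochondrial genes, also held 6 sites each with no shared or WT peak, and their strongest had folds of 49.4 and 31.0. These 3 genes were singled out after their values were seen.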
